A study of Mus musculus with 8 samples.

Results

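The complement system and the collectins were examined through 32 genes, given as a list of symbols and all found by identifier among the 56953 gene identifiers of the count files. All 32 had enough counts to be tested, as did 15669 genes in all. The libraries were made from whole liver of adult male mice in 2 groups of 4. One group was HSC-PCK1-KO, in which Pck1, the gene of the cytosolic phosphoenolpyruvate carboxykinase, was deleted in hepatic stellate cells, and the other was control, with the WT genotype. Mice of both groups ate CDHFD, a choline-deficient high-fat diet that produces fatty, inflamed and fibrotic liver, for 8 weeks, and all 8 libraries belong to batch1. The labels give no promoter or Cre line for the deletion and no age beyond adult. The study's title ties the loss of PCK1 in stellate cells to fibrosis, so the comparison asks which liver transcripts differ between the genotypes.

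Complement is a cascade of plasma proteins that marks microbes and dying cells for uptake, draws in leukocytes and can perforate membranes. The classical pathway starts when C1q binds antibody or other ligands, and the lectin pathway starts when collectins or ficolins, soluble pattern receptors with collagen-like stalks, bind sugars on a surface. Both activate C4 and C2, the alternative pathway amplifies the signal through factors B and D, and all 3 routes meet at C3 and then at the membrane attack complex of C5 to C9. Hepatocytes secrete most of these proteins, while C1q comes mainly from macrophages, which in liver are chiefly the resident Kupffer cells. In bulk tissue, fewer cells of a type and less RNA per cell cannot be told apart.

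The 3 members below are made mainly by macrophages, and a RefSeq promoter stretch for each (GRCm38.p6, 5′ to 3′ on the gene's strand) holds the letters GAGGAA, the core of the motif of PU.1, a transcription factor of macrophages. The capitals mark each match on either strand, and no match overlaps another. The C1qb stretch is the 250 bases before the RefSeq start. Those of C1qc (99 bases) and Fcna (194 bases) are only the far part of that window. They end where sequence of an annotated transcript of the gene begins. C1qb and C1qc encode chains of C1q, and Fcna encodes ficolin A. All 3 are among the members that hold the motif, and no member without it is shown.
C1qb, chr4:136886201-136886450, minus strand: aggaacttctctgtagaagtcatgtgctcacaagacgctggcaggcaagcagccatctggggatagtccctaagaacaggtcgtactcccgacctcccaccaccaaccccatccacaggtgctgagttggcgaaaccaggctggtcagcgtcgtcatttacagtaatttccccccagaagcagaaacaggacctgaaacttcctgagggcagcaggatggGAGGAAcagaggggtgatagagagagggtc
C1qc, chr4:136893066-136893164, minus strand: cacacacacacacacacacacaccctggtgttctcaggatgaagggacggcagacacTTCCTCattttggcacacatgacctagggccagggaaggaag
Fcna, chr2:25628031-25628224, minus strand: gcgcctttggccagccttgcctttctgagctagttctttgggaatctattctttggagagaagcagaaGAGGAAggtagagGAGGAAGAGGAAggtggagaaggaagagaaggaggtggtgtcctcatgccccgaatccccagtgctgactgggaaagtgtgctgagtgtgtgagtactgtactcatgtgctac
C1qb and C1qc had 1 match each, that of C1qc on the opposite strand, and Fcna had 3. Of 32817 promoter windows of the same length as each stretch, 23.3% held the motif at the length of C1qb, 9.9% at that of C1qc and 18.3% at that of Fcna. Of the 24 members with a RefSeq entry, 4 held it within the 250 bases before the start, beside 23.3% of all windows of that length. These were C1qb, C1qc, Fcna and Cd59a, while Cfp, C3ar1 and C5ar1 were among the members without a match. A match describes letters and not a bound site.

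Libraries held 44695439 to 49477255 counts. Transcripts of hepatocyte markers (7 of 8 symbols found, among them Alb and Apoa1) summed to 90387 to 111027 CPM in HSC-PCK1-KO livers and 91203 to 112064 CPM in control livers, where CPM is the count scaled to a common library size after TMM correction. Pck1 had 339, 795, 593 and 948 CPM in HSC-PCK1-KO livers, against 1002, 2012, 551 and 1028 CPM in control livers, and the groups overlapped (log2 fold change -0.78, SE 0.44, adjusted p = 0.9998 in edgeR's quasi-likelihood test). Because hepatocytes are the main source of Pck1 transcripts, this value is no check of a deletion confined to stellate cells. A pair of libraries stood apart. HSC-PCK1-KO 1 had 1166 CPM of the acute phase gene Saa1, against 79.5 to 168 CPM in the other HSC-PCK1-KO livers and 47.7 to 231 CPM in control livers. Control 4 had the highest sum of 9 recruited macrophage markers, 209.7 CPM against 31.3 to 115 CPM in the other libraries of both groups. Values without both libraries are given in the closing section.

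No member differed between the genotypes at an adjusted p under 0.05 (edgeR), and the background was 0% of 15669 genes tested. With DESeq2 0 members passed too, against 0.0383% of all genes. Before adjustment, 0 members had a p under 0.05 with edgeR, DESeq2 or limma-voom, against 2.36%, 2.34% and 2.37% of all genes. The edgeR share was made up of 1.02% higher and 1.34% lower in HSC-PCK1-KO livers. The smallest unadjusted p among members was 0.063, for Colec11. Of the 32 members, 14 were higher and 18 lower in HSC-PCK1-KO livers by the sign of the log2 fold change (HSC-PCK1-KO minus control). Their median was -0.033, beside -0.0055 over all tested genes. The groups did not overlap for 1 member, Colec11, against a background of 1.53% of all genes. The summed level of the members was 13293 ± 942 CPM in HSC-PCK1-KO livers and 13341 ± 1273 CPM in control livers (SD, n = 4 each).

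The intervals bound how large a difference could have been missed. For 22 of 32 members the 95% interval of the fold change lay within 1.5-fold in either direction, as it did for 66.8% of all tested genes. For 29 of 32 it lay within 2-fold, against 86.7% of all tested genes. The 3 exceptions were Cfd, C8b and C5ar1. A 2-fold rise lay outside the interval of 31 members and a 2-fold fall outside that of 29. The median SE was 0.14 for the members and 0.13 for all tested genes.

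**Figure D1:**
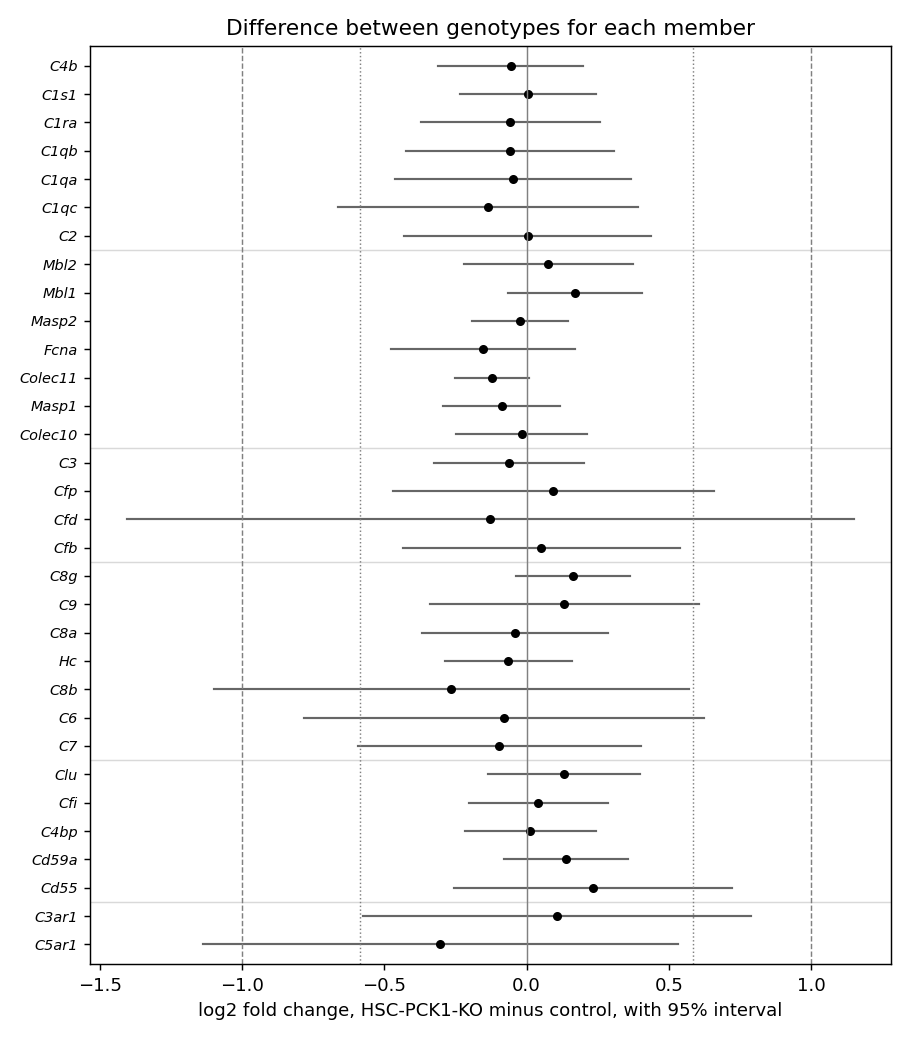
Log2 fold change (HSC-PCK1-KO minus control, x axis) of each of 32 genes (y axis, grouped by role) as a point, with its 95% interval as a line. Dotted lines mark 1.5-fold and dashed lines 2-fold, and every interval reaches across 0, with those of Cfd, C8b and C5ar1 running past 2-fold.

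Levels between genes are compared per kilobase of exon, as CPM per kb averaged over all 8 libraries. C3, the component on which all routes meet, led with 783 CPM per kb. It was followed by Clu at 427, Mbl2 at 368, C8g at 349 and C4b at 265 CPM per kb. The members thus spanned from 783 CPM per kb for C3 to 0.255 CPM per kb for C7. C3 alone made up 29.7% of the members' summed CPM in HSC-PCK1-KO livers and 30.9% in control livers. Within each pathway the members were far from equal. In the alternative pathway C3 stood beside Cfb, whose product forms the convertase with it, at 1.52 CPM per kb. The level of Cfb is uncertain because of sequence shared with another annotated gene, as described below. Among the terminal components C7 was the lowest of all members, while C8g, C9 at 195 and C8a at 142 CPM per kb were among the highest.

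**Figure D2:**
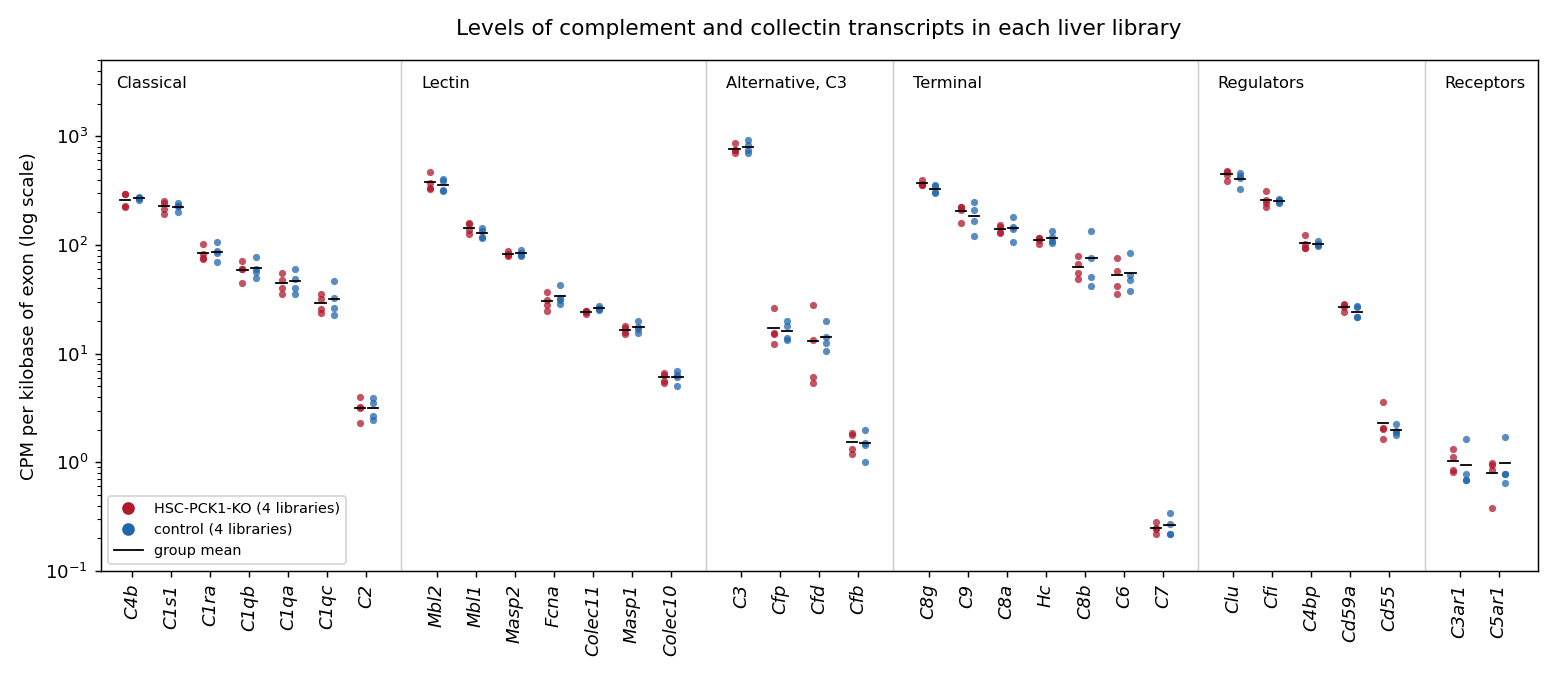
Level of each of 32 genes (x axis, grouped by role and ordered by level) in CPM per kilobase of exon on a log scale (y axis), with 4 HSC-PCK1-KO libraries in red on the left and 4 control libraries in blue on the right of each gene. Black bars are group means, which run from about the level of C3 (783 over all libraries) to that of C7 (0.255), and red and blue points intermingle for almost every gene.

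Several levels are uncertain because annotated genes share sequence with them, and how such reads were counted is not given in the sources used here. In GENCODE M21 transcripts, 66.9% of 100-base windows of Cfb and 37.1% of those of C2 also lie in another transcript, chiefly Gm20547, an overlapping locus listed at 0 counts in all 8 libraries. Of the windows of Masp2, 50.9% lie in Tardbp on the opposite strand, which had 111.5 to 129.3 CPM in HSC-PCK1-KO livers and 112.3 to 126.4 CPM in control livers. The shares were 35.9% for C1ra, mostly with its copy C1rb, and 17.4% for C1s1, with more windows in Gm16567 than in the copy C1s2. They were 15.2% for C4b with C4a, 4.27% for Cd55 with Cd55b and 0.276% for Cd59a with Cd59b. The library kit kept strand, but the strand setting of the counting is not given.

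In the classical pathway, C4b, whose product is cleaved to tag a surface, was the most abundant member per length. It had 1676, 1268, 1303 and 1676 CPM in HSC-PCK1-KO livers, against 1578, 1558, 1539 and 1481 CPM in control livers. HSC-PCK1-KO libraries 1 and 4 lay above all control libraries and libraries 2 and 3 below them, so the groups overlapped (log2 fold change -0.056, SE 0.12). C1s1 and C1ra, the proteases that C1q activates, had log2 fold changes of 0.0055 (SE 0.11) and -0.057 (SE 0.14). C2, the protease of the C3 convertase, averaged 12.2 ± 2.64 CPM in HSC-PCK1-KO livers and 12.2 ± 2.77 CPM in control livers (SD, n = 4 each). These levels of C2 carry the uncertainty from Gm20547 given above. Of the 7 members of this pathway, 2 were positive and 5 negative, with a median of -0.056.

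The 3 chains of C1q varied more between libraries than between genotypes, and their values by library were chosen for display after they were seen. C1qa (ENSMUSG00000036887.6) had 57.3, 36.9, 42.3 and 49.6 CPM in HSC-PCK1-KO livers, against 50.9, 37.1, 41.6 and 62.6 CPM in control livers. C1qb (ENSMUSG00000036905.9) had 77.6, 48.8, 65.6 and 64.9 CPM in HSC-PCK1-KO livers, against 65.9, 54.5, 61.7 and 85.1 CPM in control livers. C1qc (ENSMUSG00000036896.6) had 69.0, 49.3, 45.7 and 61.9 CPM in HSC-PCK1-KO livers, against 62.5, 43.9, 50.8 and 90.6 CPM in control livers. For every chain the highest library was control 4 and the highest HSC-PCK1-KO library was number 1. The log2 fold changes were -0.047 (SE 0.18), -0.058 (SE 0.16) and -0.13 (SE 0.23) in that order of chains. The ratio of C1qb to C1qa per length was 1.32 ± 0.11 in HSC-PCK1-KO livers and 1.34 ± 0.087 in control livers (SD, n = 4 each, exact two-sided permutation p = 0.886). That of C1qc to C1qa was 0.656 ± 0.057 in HSC-PCK1-KO livers and 0.684 ± 0.064 in control livers (SD, n = 4 each, exact two-sided permutation p = 0.543). Of 6 such ratios between partner genes compared, the smallest adjusted p was 0.857, and with 70 assignments the smallest p the test can give is 0.0286.

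C1qa followed the Kupffer cell markers across the 8 libraries. The score was the mean z score of Clec4f, Cd5l, Marco, Timd4, Folr2, Cd163, Slc40a1 and Adgre1, none of which is a member. Pearson's r was 0.926 (exact permutation p = 0.00161, adjusted p = 0.00806 over the 5 relations computed). Spearman's rho was 0.905 (exact permutation p = 0.00456, adjusted p = 0.0228). Without HSC-PCK1-KO 2 and control 4, the libraries farthest from the median score, r was 0.859 (exact permutation p = 0.0264, adjusted p = 0.0648), so the relation kept its direction but missed the threshold after adjustment. Summed, these markers had 408 to 625 CPM in HSC-PCK1-KO livers and 441 to 625 CPM in control livers, and none was at 0 in any library. By sign, 4 of them were higher and 4 lower in HSC-PCK1-KO livers. Only Cd163 had an unadjusted p under 0.05 (log2 fold change -0.72, SE 0.22, edgeR unadjusted p = 0.0083, adjusted p = 0.9998). With the 9 recruited macrophage markers, C1qa had r = 0.415 (exact permutation p = 0.316, adjusted p = 0.395) and rho = 0.333 (exact permutation p = 0.428, adjusted p = 0.535). Without control 2 and HSC-PCK1-KO 1 that r was 0.761 (exact permutation p = 0.0944), and without control 4 alone it was 0.042.

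In the lectin pathway, all 7 members had an interval within 1.5-fold, with 2 positive and 5 negative log2 fold changes and a median of -0.024. Mbl2, one of the 2 mouse mannose-binding lectins, was the most abundant per length. It had 512, 405, 366 and 359.5 CPM in HSC-PCK1-KO livers, against 345, 351, 422 and 442 CPM in control livers. HSC-PCK1-KO 1 was the highest and the other 3 lay within the range of the control libraries (log2 fold change 0.075, SE 0.13). Its partner Mbl1 (ENSMUSG00000037780.4) had 250.1, 198, 246 and 215 CPM in HSC-PCK1-KO livers, against 187, 227, 213 and 181 CPM in control livers. HSC-PCK1-KO 1 and 3 exceeded every control library and the others did not (log2 fold change 0.17, SE 0.11, edgeR unadjusted p = 0.137, adjusted p = 0.9998). Per length, Mbl2 was 2.61 ± 0.41 times Mbl1 in HSC-PCK1-KO livers and 2.82 ± 0.54 times in control livers (SD, n = 4 each, exact two-sided permutation p = 0.6).

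Colec11 (ENSMUSG00000036655.9), which encodes collectin-11, a soluble lectin that pairs with the product of Colec10, was the 1 member whose groups did not overlap. It had 37.9, 39.7, 39.2 and 40.1 CPM in HSC-PCK1-KO livers, against 44.9, 42.9, 41.0 and 41.9 CPM in control livers. Every HSC-PCK1-KO library lay below every control library, and among all tested genes 0.811% were lower without overlap. The group means were 39.2 ± 0.953 CPM in HSC-PCK1-KO livers and 42.7 ± 1.70 CPM in control livers (SD, n = 4 each). The log2 fold change was -0.12 (SE 0.058, edgeR unadjusted p = 0.063, adjusted p = 0.9998), and its 95% interval ran from 0.840-fold to 1.01-fold. Colec10 had 30.7, 24.9, 25.9 and 29.4 CPM in HSC-PCK1-KO livers, against 29.1, 31.7, 28.0 and 23.4 CPM in control livers, with values of both groups mixed (log2 fold change -0.016, SE 0.10).

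Stellate cells are a known source of collectins in liver, and the levels of their markers are given here beside Colec11. The summed level of 8 quiescent stellate cell markers, among them Lrat and Reln, was 221.5 to 270.2 CPM in HSC-PCK1-KO livers and 270.5 to 295.1 CPM in control livers, with none at 0 in any library. These sums met within 1 CPM, and each of the 8 markers taken alone overlapped between the groups. The lowest sum was that of HSC-PCK1-KO 1, at 221.5 CPM, against 264.0 to 270.2 CPM in the other HSC-PCK1-KO livers. None of these 8 markers passed the test, with 1 positive, 7 negative and a median log2 fold change of -0.13. The activated stellate and mesothelial lists also held mostly negative values. So did those of recruited macrophages (8 of 9), neutrophils (3 of 3 tested), cholangiocytes (3 of 4) and sinusoidal endothelial cells (4 of 6). Kupffer cell markers were 4 positive and 4 negative, and hepatocyte markers 3 positive and 4 negative. All 6 B and plasma cell markers were positive (median 0.35). Of 8 activated stellate cell markers, 7 were negative (median -0.25), with sums of 71.4 to 134.5 CPM in HSC-PCK1-KO livers and 78.1 to 217.8 CPM in control livers. All 6 mesothelial cell markers were negative (median -1.24), in a list chosen with earlier results of these data known. Of them, 3 were lower at an unadjusted p under 0.05 and none passed after adjustment (edgeR). Beside this, 1.34% of all tested genes were lower at that unadjusted level. The mesothelial sums were 2.50 to 5.32 CPM in HSC-PCK1-KO livers and 5.07 to 12.8 CPM in control livers. With DESeq2, the mesothelial marker Upk3b did pass (log2 fold change -1.79, adjusted p = 0.0097). The groups did not overlap for 2 of the mesothelial markers, Upk3b and Msln, against 1.53% of all tested genes. Across the 8 libraries, Colec11 had r = 0.680 with the mean z score of the 8 quiescent stellate cell markers (exact permutation p = 0.0665, adjusted p = 0.166). Spearman's rho was 0.786 (exact permutation p = 0.0279, adjusted p = 0.0698). Without HSC-PCK1-KO 1 and control 4, r was 0.627 (exact permutation p = 0.192). Colec10 had r = -0.338 (exact permutation p = 0.456, adjusted p = 0.456) and rho = -0.0714 (exact permutation p = 0.882, adjusted p = 0.882), and without the same libraries r was 0.848 (exact permutation p = 0.0375, adjusted p = 0.0648). Leaving out HSC-PCK1-KO 1 alone turned the sign of that relation (r = 0.095), and leaving out control 4 alone did not (r = -0.174). The part of stellate or mesothelial cells in the values of Colec11 was not tested.

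Fcna (ENSMUSG00000026938.11) had 50.4, 34.1, 38.9 and 42.9 CPM in HSC-PCK1-KO livers, against 39.6, 58.3, 42.7 and 44.4 CPM in control livers. Control 2 was the highest and HSC-PCK1-KO 2 the lowest (log2 fold change -0.15, SE 0.14, edgeR unadjusted p = 0.314). Masp1 (ENSMUSG00000022887.10), a protease that lectins carry, had 151, 155, 168 and 176 CPM in HSC-PCK1-KO livers, against 166, 197, 154 and 173 CPM in control livers. The ranges overlapped, with control 2 the highest (log2 fold change -0.088, SE 0.092, edgeR unadjusted p = 0.364). Masp2, the protease that cleaves C4 and C2, averaged 273 ± 12.1 CPM in HSC-PCK1-KO livers and 277 ± 15.7 CPM in control livers (SD, n = 4 each), within the uncertainty from Tardbp given above.

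C3 (ENSMUSG00000024164.16) had 4494, 3873, 3819.8 and 3582 CPM in HSC-PCK1-KO livers, against 3635, 4732, 3816 and 4283 CPM in control livers. Control 2 and HSC-PCK1-KO 1 were the highest, and the groups overlapped (log2 fold change -0.062, SE 0.12). Its 95% interval ran from 0.798-fold to 1.15-fold. Of the 4 members of the alternative pathway, 2 were positive and 2 negative, with a median of -0.0054. Cfb, factor B, averaged 4.36 ± 0.951 CPM in HSC-PCK1-KO livers and 4.22 ± 1.15 CPM in control livers (SD, n = 4 each). These levels of Cfb carry the uncertainty from Gm20547 given above.

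Cfd and Cfp were chosen for display after their values were seen. Cfd (ENSMUSG00000061780.7) encodes factor D, which is known as adipsin because fat cells secrete it. It had 25.9, 4.99, 12.3 and 5.57 CPM in HSC-PCK1-KO livers, against 18.4, 9.86, 11.6 and 13.2 CPM in control livers. The HSC-PCK1-KO libraries held both the lowest and the highest value, 5.19 times apart, the widest ratio of any member. The log2 fold change was -0.13 (SE 0.54) with an interval from 0.378-fold to 2.22-fold. Summed levels of the fat cell markers Adipoq, Plin1, Retn and Lep were at most 0.104 CPM in HSC-PCK1-KO livers and 0.122 CPM in control livers, and Lep was at 0 in every library. Cfp, properdin, which stabilises the alternative convertase, had 46.1, 21.2, 26.4 and 26.9 CPM in HSC-PCK1-KO livers, against 31.1, 24.3, 23.0 and 34.6 CPM in control livers. HSC-PCK1-KO 1 was again the highest (log2 fold change 0.094, SE 0.25).

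Among the 7 terminal components, 2 log2 fold changes were positive and 5 negative, with a median of -0.064, and 3 intervals lay within 1.5-fold. C8g (ENSMUSG00000015083.12), the lipocalin-type subunit of C8, was the most abundant per length. It had 595, 533, 544 and 529.6 CPM in HSC-PCK1-KO livers, against 448, 523, 533 and 463 CPM in control livers. Only control 3 reached into the range of the HSC-PCK1-KO libraries, lying just below HSC-PCK1-KO 2 and above HSC-PCK1-KO 4. The means were 550 ± 30.3 CPM in HSC-PCK1-KO livers and 492 ± 42.6 CPM in control livers (SD, n = 4 each), and the log2 fold change was 0.16 (SE 0.090, edgeR unadjusted p = 0.0982, adjusted p = 0.9998). Per length, C8g was 2.65 ± 0.33 times C8a in HSC-PCK1-KO livers and 2.35 ± 0.40 times in control livers (SD, n = 4 each, exact two-sided permutation p = 0.314).

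C8b, C6 and C9 were spread widely within groups, and their values by library were chosen for display after they were seen. C8b (ENSMUSG00000029656.14) had 125, 142, 202 and 171 CPM in HSC-PCK1-KO livers, against 108, 339.5, 192 and 129 CPM in control livers. Control 1 and control 2 were the lowest and the highest of all 8 libraries, so the control group spanned the HSC-PCK1-KO group (log2 fold change -0.26, SE 0.36, interval 0.467-fold to 1.48-fold). C6 (ENSMUSG00000022181.17), which joins the complex after C5b, had 125, 205, 272 and 148 CPM in HSC-PCK1-KO livers, against 135, 299, 188 and 170.2 CPM in control livers. Here too control 2 was the highest (log2 fold change -0.080, SE 0.31). C9 (ENSMUSG00000022149.19), whose copies line the pore, had 571, 407, 571 and 539 CPM in HSC-PCK1-KO livers, against 310.2, 643, 531 and 422 CPM in control livers. Control 1 was the lowest and control 2 the highest (log2 fold change 0.13, SE 0.21). The ratio of C8b to C8a per length was 0.446 ± 0.068 in HSC-PCK1-KO livers and 0.502 ± 0.17 in control livers (SD, n = 4 each, exact two-sided permutation p = 0.714). Hc, the mouse gene of C5, averaged 697 ± 38.3 CPM in HSC-PCK1-KO livers and 729 ± 84.0 CPM in control livers (SD, n = 4 each). C7 was near the limit of measurement, at 0.582 to 0.752 CPM in HSC-PCK1-KO livers and 0.590 to 0.913 CPM in control livers, from 25 to 45 counts per library.

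All 5 regulators had a value above 0 for HSC-PCK1-KO minus control (median 0.13 on the log2 scale), but none passed the test. Over all tested genes 48.2% were positive. RLE and upper quartile scaling kept all 5 signs, but without HSC-PCK1-KO 1 those of Cfi (-0.066), C4bp (-0.086) and Cd55 turned. Clu (ENSMUSG00000022037.16), clusterin, a chaperone that holds the terminal complex soluble, had 1619, 1524, 1651 and 1339.5 CPM in HSC-PCK1-KO livers, against 1137, 1475, 1417 and 1571 CPM in control livers. HSC-PCK1-KO 1 and 3 exceeded every control library, while HSC-PCK1-KO 4 lay below 3 of them (log2 fold change 0.13, SE 0.12). Cd59a (ENSMUSG00000032679.13), a membrane protein that blocks C9, had 48.5, 51.4, 43.8 and 50.9 CPM in HSC-PCK1-KO livers, against 49.4, 39.1, 39.2 and 49.1 CPM in control livers. Control 2 and 3 were the lowest and the other libraries lay between 43.8 and 51.4 CPM (log2 fold change 0.14, SE 0.099, edgeR unadjusted p = 0.191, adjusted p = 0.9998). Cd55, which takes convertases apart on cell surfaces, was chosen for display after its values were seen. It had 17.3, 7.98, 9.83 and 9.999 CPM in HSC-PCK1-KO livers, against 9.52, 8.61, 9.19 and 11.0 CPM in control livers. HSC-PCK1-KO 1 was the highest of all libraries (log2 fold change 0.23, SE 0.22), and without it the log2 fold change was -0.050. Cfi, the protease that inactivates C3b and C4b, averaged 581 ± 88.3 CPM in HSC-PCK1-KO livers and 564 ± 21.2 CPM in control livers (SD, n = 4 each). Its cofactor C4bp averaged 696 ± 93.8 CPM in HSC-PCK1-KO livers and 689.7 ± 29.0 CPM in control livers (SD, n = 4 each).

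The receptors for the released fragments were low. C3ar1 (ENSMUSG00000040552.9), the receptor of C3a, had 5.76, 3.5, 3.68 and 4.86 CPM in HSC-PCK1-KO livers, against 2.98, 3.00, 3.38 and 7.10 CPM in control livers. Control 4 was the highest of all and the other 3 control libraries were below every HSC-PCK1-KO library (log2 fold change 0.11, SE 0.30). Without control 4 the log2 fold change was 0.51 (edgeR unadjusted p = 0.0246, adjusted p = 0.9998). C5ar1 (ENSMUSG00000049130.7), the receptor of C5a, had 0.983, 2.19, 2.45 and 2.56 CPM in HSC-PCK1-KO livers, against 2.03, 1.65, 2.01 and 4.40 CPM in control livers. Control 4 was the highest and HSC-PCK1-KO 1 the lowest, from 44 to 230 counts per library (log2 fold change -0.30, SE 0.37). Without control 4 the value for C5ar1 was 0.11, of opposite sign. Recruited macrophage markers summed to 39.4 CPM in the library HSC-PCK1-KO 1, the lowest of its group, and to 209.7 CPM in control 4, the highest of all. C3ar1 had r = 0.409 with the score of these markers (exact permutation p = 0.311, adjusted p = 0.395) and rho = 0.429 (exact permutation p = 0.299, adjusted p = 0.499). Without control 4 alone, the highest library in C3ar1 and in the summed markers, r was -0.062. Without control 2 and HSC-PCK1-KO 1, r was 0.852 (exact permutation p = 0.0389, adjusted p = 0.0648). The part of these cells in the receptors' values was not tested.

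**Figure D3:**
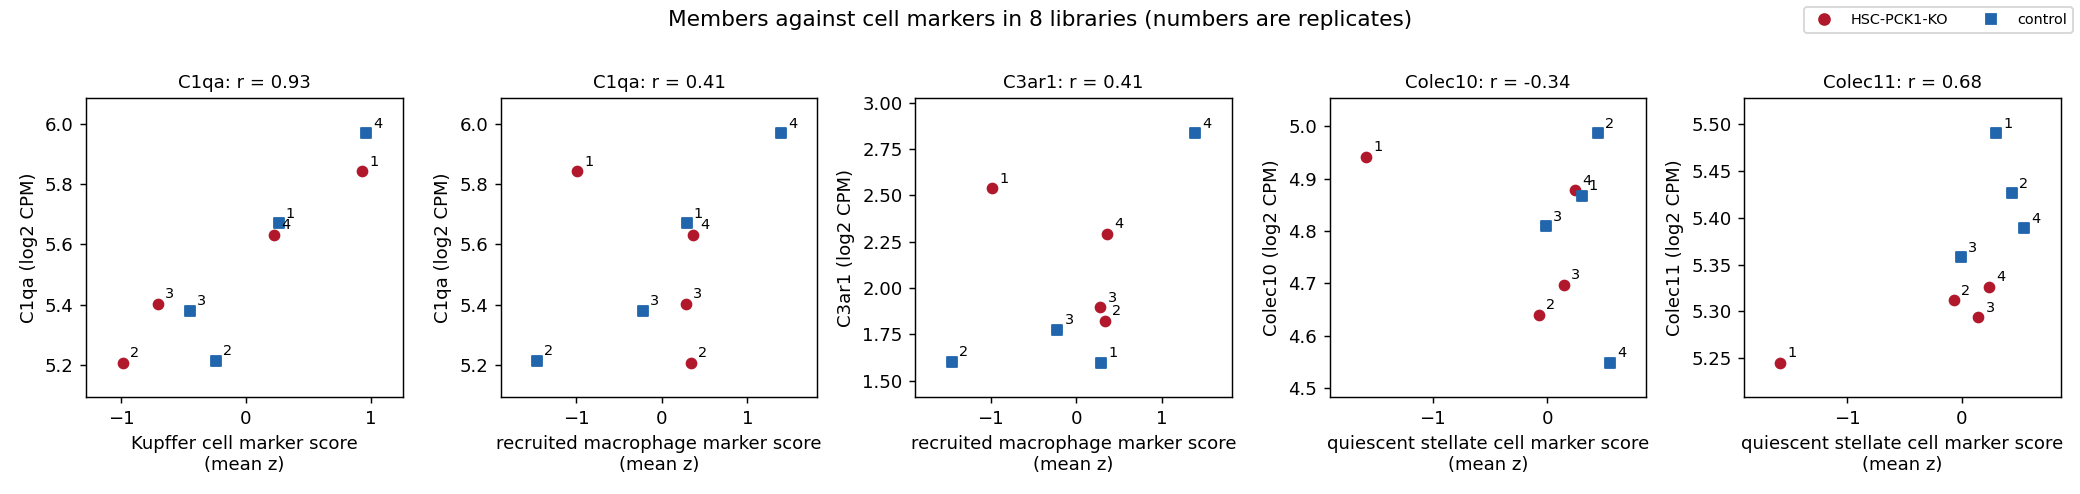
Log2 CPM of a member (y axis) against the mean z score of a cell marker list (x axis) in 8 libraries, with HSC-PCK1-KO as red circles and control as blue squares, numbered by replicate. C1qa rises along the Kupffer cell score (r = 0.926), while the points of the other 4 panels scatter, with r from -0.338 for Colec10 to 0.680 for Colec11.

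The members varied somewhat more between libraries of the same genotype than the median gene. The median coefficient of variation within groups was 16.4% for the members and 13.0% for all tested genes. Among genes averaging at least 100 CPM it was 11.0% for 17 members and 9.61% for all 1382. In that range 3 members exceeded 20%, which is 17.6% of them, against 10.8% of all such genes. These were C6, C8b and C9.

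**Figure D4:**
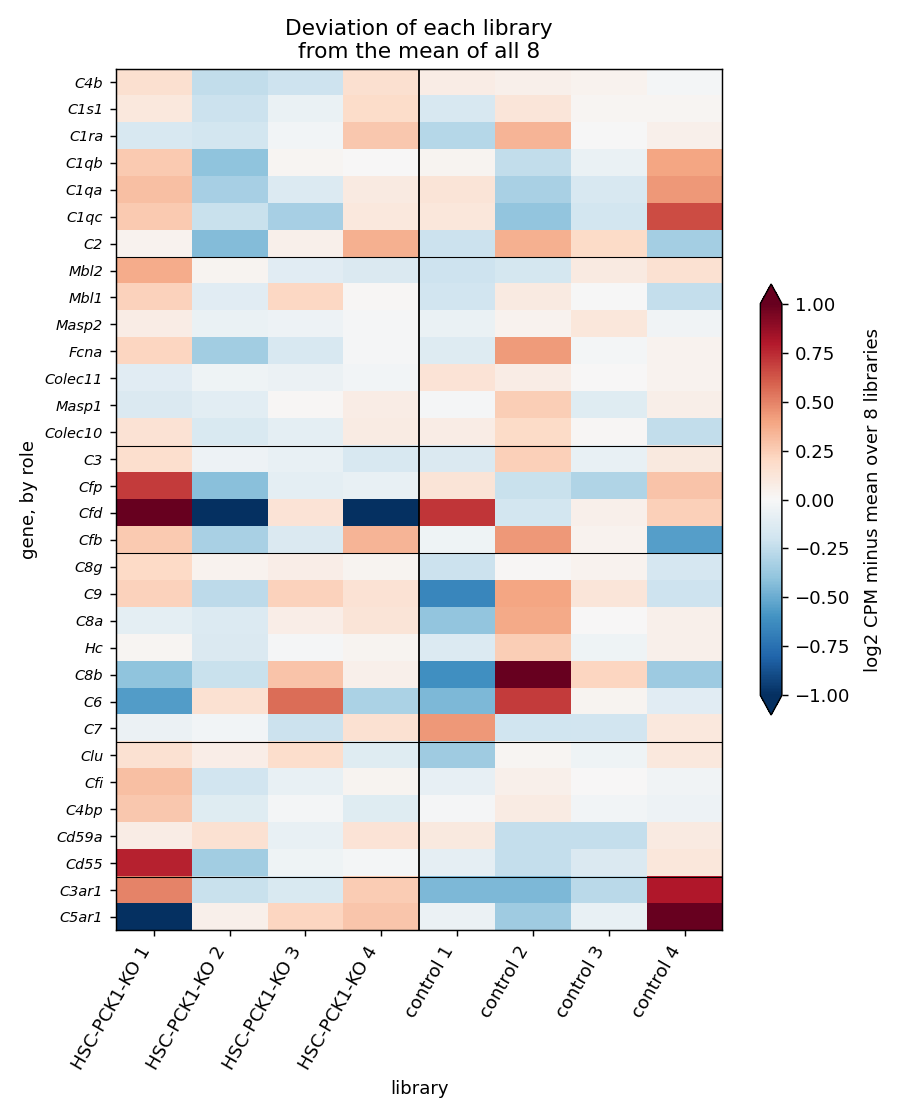
Deviation of log2 CPM from the gene's mean over 8 libraries (colour, red above and blue below) for each of 32 genes (rows, by role) in each library (columns, 4 HSC-PCK1-KO then 4 control). No block of colour follows genotype, and single libraries stand out, such as HSC-PCK1-KO 1 for Cfd (25.9 CPM) and Cd55 (17.3 CPM), control 2 for C8b (339.5 CPM) and control 4 for C3ar1 (7.10 CPM).

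The rest of the pathway was read from 26 further complement genes, of which 22 were tested. By sign, 10 were higher and 12 lower in HSC-PCK1-KO livers (median -0.027 on the log2 scale), and none reached an unadjusted p under 0.05 with edgeR. Cd46, a membrane cofactor of Cfi, had the smallest p. It had 1.5, 1.63, 1.62 and 1.69 CPM in HSC-PCK1-KO livers, against 1.04, 1.32, 1.39 and 1.44 CPM in control livers. Every HSC-PCK1-KO library lay above every control library, as for 0.721% of all tested genes (log2 fold change 0.31, SE 0.17, edgeR unadjusted p = 0.0918, adjusted p = 0.9998). Cpn1, a subunit of the carboxypeptidase that inactivates C3a and C5a, had a log2 fold change of -0.10 (SE 0.090). C4a, the near copy of C4b, had one of -0.55 (SE 0.52), and its ratio to C4b is uncertain where reads could be shared. Of 15 acute phase proteins, 11 were positive and 4 negative with a median of 0.099, and none reached an unadjusted p under 0.05 with edgeR. Those with the smallest p were Crp (log2 fold change 0.19, SE 0.097), Saa1 (1.62, SE 0.98) and Orm1 (0.28, SE 0.18). The high value of Saa1 in HSC-PCK1-KO 1 is given above. That library was also the highest of all for Saa2, Saa4, Orm1, Orm2, Hp, Hpx and Itih4. It was not for Saa3, Lcn2, Fga, Fgb, Fgg, Apcs or Crp. The acute phase sum was 27636 CPM there, against 20395 to 22373 CPM in the other HSC-PCK1-KO livers and 21668 to 22455 CPM in control livers.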

How the data were processed

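Messenger RNA of 8 liver samples was sequenced with a strand-specific kit as paired reads on DNBSEQ, per the labels' protocols. The authors deposited raw counts per gene identifier, without normalization. The build was GRCm39 and R 4.3.2 was used, per the submitters' processing notes. The sources used here do not give the aligner, counter, annotation, strand setting or treatment of shared reads. GENCODE M21, made for GRCm38, named 52029 of 56953 identifiers and gave exon lengths, so levels per kilobase mix releases.

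Counts were analysed in R 4.3.3. edgeR 4.0.16 kept 15669 genes (filterByExpr), scaled libraries by TMM and compared HSC-PCK1-KO with control by a robust quasi-likelihood F-test with genotype as the only term, Benjamini-Hochberg adjustment over all genes and a threshold of 0.05. CPM use TMM-scaled totals, and log2 CPM a prior count of 2. Relations and ratios were tested by exact two-sided permutation. Alternatives were RLE and upper quartile factors, other count filters, DESeq2 1.42.0, limma-voom 3.58.1 with sample weights, an adjusted p of 0.1, a replicate block and leaving out libraries. The calculations were tested on simulated data.

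The members and lists were chosen with earlier results of these data known. All members are named. Values by library were set for those with an unadjusted p under 0.05, the 3 with the smallest p in each direction, any without overlap, the highest per length in each role and any with a library far from its group. Others shown were chosen after their values were seen.

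The design text calls the 4 samples of a group biological replicates. Libraries within a group differed by a chi-square per degree of freedom of 44.4 to 168, so none was a copy. Their number limits precision, with a median SE of 0.13 on the log2 scale.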

Additional observations from a re-analysis of the deposited data

Results flagged for a closer look

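Of 64 sets of 4 libraries, 1 per gene and genotype, 2 had a library farther from the other 3 than Dixon's 95% limit for the gap as a share of the range allows, where chance alone gives about 1 in 20, or 3.2. Both were receptors in control 4. C3ar1 was 7.10 CPM there, with a gap of 0.903 of the group's range. C5ar1 was 4.40 CPM there, with a gap of 0.862 of the range. The same library had the highest sum of recruited macrophage markers, 209.7 CPM, and the part of those cells was not tested.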

How the results depend on the processing

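Over 511 values of members under alternatives, 455 kept their direction and 56 reversed, and in none of them did a member pass the threshold. RLE and upper quartile factors, the other filters, DESeq2 and the replicate block reversed none. The 7 members that never reversed were Colec11, C8g, Cd59a, Clu, Fcna, Masp1 and Mbl1. The cause of the reversals was not tested beyond the libraries left out. Genes called over the whole table numbered 0, but 6 with DESeq2 and from 0 to 1 when each library was left out, with 1 without control 1. Members at an unadjusted p under 0.05 numbered from 0 to 1, the 1 being C3ar1 without control 4. With the replicate number as a block the counts were 0 genes and 0 members. The labels state no pairing by number. Deviations of same-numbered libraries had correlations of -0.33 to 0.058, beside -0.35 to 0.35 for other numbers, and 1 of 8 libraries correlated best with its own number. With 4 libraries per group and deviations taken from group means, these correlations cannot exclude a pairing.

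With limma-voom the log2 fold changes of C1s1, C2 and C6 reversed to -0.022, -0.056 and 0.018. Without HSC-PCK1-KO 1 and control 4, an alternative chosen after seeing the data, 0 members were called and the reversed values were -0.022 for C1s1, -0.10 for C2, -0.17 for Cfb, -0.071 for Cfp, 0.0071 for C6, -0.071 for Cfi, -0.10 for C4bp and 0.34 for C5ar1. Leaving out each library in turn gave log2 fold changes with both signs for 25 members, from -0.17 to 0.11 for C1qa, -0.16 to 0.082 for C1qb, -0.27 to 0.11 for C1qc, -0.17 to 0.057 for C1ra, -0.056 to 0.073 for C1s1, -0.12 to 0.13 for C2, -0.13 to 0.011 for C3, -0.043 to 0.51 for C3ar1, -0.12 to 0.012 for C4b, -0.086 to 0.056 for C4bp, -0.46 to 0.11 for C5ar1, -0.31 to 0.19 for C6, -0.17 to 0.053 for C7, -0.16 to 0.093 for C8a, -0.46 to 0.16 for C8b, -0.026 to 0.31 for C9, -0.050 to 0.37 for Cd55, -0.095 to 0.22 for Cfb, -0.81 to 0.13 for Cfd, -0.066 to 0.11 for Cfi, -0.19 to 0.23 for Cfp, -0.093 to 0.047 for Colec10, -0.12 to 0.013 for Hc, -0.056 to 0.017 for Masp2 and -0.051 to 0.14 for Mbl2. Without its 2 most extreme libraries, r was 0.859 for C1qa with Kupffer cell markers, with an adjusted p of 0.0648, and 0.848 for Colec10 with quiescent stellate cell markers, where it reversed. Leaving out 1 library gave r of 0.895 to 0.983 for C1qa with Kupffer cell markers, 0.042 to 0.76 for C1qa and -0.062 to 0.75 for C3ar1 with recruited macrophage markers, -0.56 to 0.095 for Colec10 and 0.56 to 0.79 for Colec11, the last with an adjusted p of 0.0481 without control 1.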

Other observations

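Control 2, the library highest in C8b, C6 and C9, was also the highest in C4a and Susd4, a membrane regulator of complement. Both were chosen after their values were seen. C4a had 29.8, 20.7, 54.4 and 16.4 CPM in HSC-PCK1-KO livers, against 23.5, 68.8, 61.1 and 23.8 CPM in control livers. Susd4 had 25.3, 25.3, 55.2 and 24.0 CPM in HSC-PCK1-KO livers, against 20.4, 77.5, 40.3 and 22.6 CPM in control livers. HSC-PCK1-KO 3 was the highest of its group for C4a, Susd4 and C6. Per length, C4b was 61.2, 66.7, 26.1 and 111 times C4a in HSC-PCK1-KO livers, against 73.1, 24.7, 27.5 and 67.9 times in control livers.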
